A study of Mus musculus with 9 samples.

Results

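The potassium channel genes of the mouse were followed here through organoid cultures of the small intestine, with Kcnj15, a gene of the inward rectifier subfamily, as the reference member. Members were all genes of the transcription table whose symbol begins with Kcn followed by subfamily letters and a number. The rule gave 97 of 24505 genes: 40 voltage-gated channel genes, 15 inward rectifiers, 14 two-pore channels, 8 calcium- or sodium-activated channels, 16 auxiliary subunits and 4 RNAs transcribed from the opposite strand of a channel gene. Kcnj15 was selected on its GRO-seq values, by its rise in the RANKL culture over the others, so its own contrasts with RANKL are a description without a test. It is left out of every count of called members below.

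Potassium channels let potassium ions leave or enter a cell and so set the voltage across its membrane. In the gut lining, channels in the basolateral membrane of crypt cells recycle the potassium that the sodium pump and the sodium-potassium-chloride cotransporter bring in, which keeps up the driving force for chloride secretion through CFTR. KCNQ1 with its partner KCNE3, and the calcium-activated KCNN4, are the best known of these. Many other Kcn genes are known mainly from neurons and muscle, and their promoters are often rich in CpG and bound by Polycomb complexes in other cell types. The Polycomb complex PRC2 lays down H3K27me3, a histone mark found at silent developmental and neuronal genes.

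Nascent transcription was measured by GRO-seq, which labels RNA still being made by polymerases engaged in isolated nuclei, in 6 libraries of mouse duodenal organoids (mini-guts). There were 2 libraries of each of 3 cultures: RANKL, given as intestinal M cells, ENRI, given as enterocytes, and WENRC, given as stem cells of the intestine. No genotype, strain, age or treatment time is given in the labels, and the culture names are used as written there. RANKL is also the name of the cytokine that drives M-cell formation. ENRI and WENRC libraries with the same number came from the same mouse, whereas RANKL libraries carry only a replicate number. ChIP-seq for H3K27me3 covered RANKL, with 2 libraries pooled by the authors, and WENRC, with 1 library. Since a culture may hold several cell types, fewer cells of a type and less RNA per cell cannot be told apart in any value below. The RANKL GRO-seq libraries were sequenced apart from the others per the file headers, so batch and culture cannot be told apart in their contrasts. GRO-seq depth is unknown, and the pooled RANKL ChIP-seq held 32.7 M tags.

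The culture labels were checked against marker genes. All 8 M-cell markers were higher in RANKL than in ENRI and 7 of 8 were higher than in WENRC. Of 7 stem-cell markers 6 were higher in WENRC than in ENRI, and 4 were higher in RANKL than in ENRI, with 1 higher and 1 lower in RANKL than in WENRC. Of 8 enterocyte markers 7 were lower in WENRC than in ENRI, 5 were lower in RANKL than in ENRI, and 3 were higher in RANKL than in WENRC. Markers of other cell types differed too: Defa24 and Mmp7, of 5 Paneth markers, and Pou2f3, of 6 tuft markers, were higher in RANKL than in both other cultures. On the log2 scale the Paneth list summed to 10.8 to 10.98 in RANKL, 8.68 to 9.71 in ENRI and 9.06 to 9.46 in WENRC. The enteroendocrine list summed to 10.5 to 10.9, 9.53 to 10.1 and 9.45 to 9.81, with 1 of its 6 tested markers higher in RANKL in each contrast. The part of these cell types in the values of Kcn genes was not tested. The 6 neuron and glia markers summed to 7.62 to 7.77 in RANKL, 7.58 to 8.01 in ENRI and 7.66 to 7.73 in WENRC. Of the 5 tested, S100b was lower in RANKL than in ENRI (change -1.08, limma FDR 0.024), and no other call was made in any comparison. None of the markers was listed at 0 in all libraries. The libraries of a culture differed by an SD over genes of 0.22 in RANKL, 0.70 in ENRI and 0.42 in WENRC on the log2 scale.

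RefSeq promoter windows, running from 250 bases before to 50 bases after an annotated start on GRCm38.p6, were found for 71 of the 97 members (96 windows). They held a median of 16 CpG dinucleotides per window, against 8 over all genes. Below are 4 of them, chosen to show the range of sequence behind the results: Kcnj15, Kcnk5, which has no H3K27me3 region in either table, Kcng3, whose start had fewer tags of the mark in RANKL than in WENRC, and Kcnh2, whose starts had more. Each is written from 5′ to 3′ on the strand of the gene with every CpG in capitals.
Kcnj15: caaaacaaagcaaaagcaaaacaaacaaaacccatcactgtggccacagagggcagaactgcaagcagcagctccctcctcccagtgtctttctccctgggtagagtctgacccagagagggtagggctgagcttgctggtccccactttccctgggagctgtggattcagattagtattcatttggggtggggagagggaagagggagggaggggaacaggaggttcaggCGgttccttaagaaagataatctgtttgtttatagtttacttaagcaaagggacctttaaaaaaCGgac
Kcnk5: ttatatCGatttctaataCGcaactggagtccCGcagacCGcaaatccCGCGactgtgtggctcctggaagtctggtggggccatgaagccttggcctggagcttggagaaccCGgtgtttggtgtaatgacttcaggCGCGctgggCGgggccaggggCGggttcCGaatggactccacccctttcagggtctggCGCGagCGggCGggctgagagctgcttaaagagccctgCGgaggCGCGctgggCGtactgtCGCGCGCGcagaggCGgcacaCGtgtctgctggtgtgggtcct
Kcng3: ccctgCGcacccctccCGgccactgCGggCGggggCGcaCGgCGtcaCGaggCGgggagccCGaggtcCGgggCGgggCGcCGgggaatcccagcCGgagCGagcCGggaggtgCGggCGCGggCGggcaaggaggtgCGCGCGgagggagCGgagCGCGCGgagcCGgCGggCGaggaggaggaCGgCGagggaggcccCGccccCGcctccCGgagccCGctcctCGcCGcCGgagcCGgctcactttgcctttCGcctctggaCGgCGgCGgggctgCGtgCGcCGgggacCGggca
Kcnh2: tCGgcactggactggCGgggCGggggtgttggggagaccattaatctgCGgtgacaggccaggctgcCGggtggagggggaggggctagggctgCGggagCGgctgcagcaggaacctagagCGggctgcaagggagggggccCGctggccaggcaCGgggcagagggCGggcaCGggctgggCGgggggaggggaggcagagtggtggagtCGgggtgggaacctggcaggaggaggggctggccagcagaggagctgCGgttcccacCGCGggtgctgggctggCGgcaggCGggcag

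The Kcnj15 window (chr16:95257308-95257607, plus strand) held 2 CpGs and had a GC content of 49.7%. The Kcnk5 window (chr14:20181733-20182032, minus strand) held 26 CpGs and the Kcnh2 window (chr5:24329542-24329841, minus strand) 19. The Kcng3 window (chr17:83631846-83632145, minus strand) held 49 CpGs at a GC content of 82%. Kcnj15 was thus far poorer in CpG than the median member. Windows were searched on both strands for 3 letter patterns, each counted whether or not it overlapped another. GAGGAA, the core bound by several Ets factors, was in 29.2% of member windows and 28.3% of all windows of this length. AAGGTCA, a site of estrogen-related receptors, was in 3.13% and 4.72%. GGGNNNNNCC, the frame of NF-kB sites, was in 61.5% and 50.8%. Its fixed letters are all G or C and member windows were richer in CpG, and the part of base composition in this difference was not tested. The Kcnj15 window held none of these 3 patterns.

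Transcription is given as deposited, as a normalized log2 value over the whole gene, and a change is a difference of 2 such values. Kcnj15 (NM_001039057, mm9 chr16:95479165-95521865, plus strand), which codes for an inward rectifier found in kidney and other epithelia, read 9.95 and 10.10 in the 2 RANKL libraries. It read 2.92 and 3.33 in ENRI and 2.80 and 3.68 in WENRC. Both RANKL libraries stood far above the other 4, which overlapped between the cultures. The difference of means was 6.91 against ENRI and 6.79 against WENRC, or 120- and 110-fold on this scale. Between WENRC and ENRI, Kcnj15 differed by 0.12 (SE 0.33, limma FDR 0.84). Its low values in both of these cultures were part of the choice of the gene, so this contrast is no independent test. In the authors' deposited table its log2 fold change was 9.87 against ENRI and 9.74 against WENRC.

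The genes around Kcnj15 did not follow it. The 3 listed genes on each side were Dscr3, Dyrk1a and Kcnj6, and Erg, Ets2 and 1600002D24Rik. None of the 6 was called in either contrast with RANKL. Erg, the nearest at 58.9 kb, read 5.48 and 4.52 in RANKL and 4.07 and 5.89 in ENRI, so that its cultures overlapped. Kcnj6, another inward rectifier and 260 kb away, read 6.20 and 5.75 in RANKL and 4.59 and 6.25 in ENRI, with a change of 0.56 (SD 0.32 and 1.18 in the respective cultures). Ets2, a transcription factor gene, read 10.69 and 10.58 in RANKL, below its 10.74 and 10.999 in ENRI and its 10.91 and 11.15 in WENRC, and its change against ENRI was -0.24 (limma FDR 0.34).

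**Figure D1:**
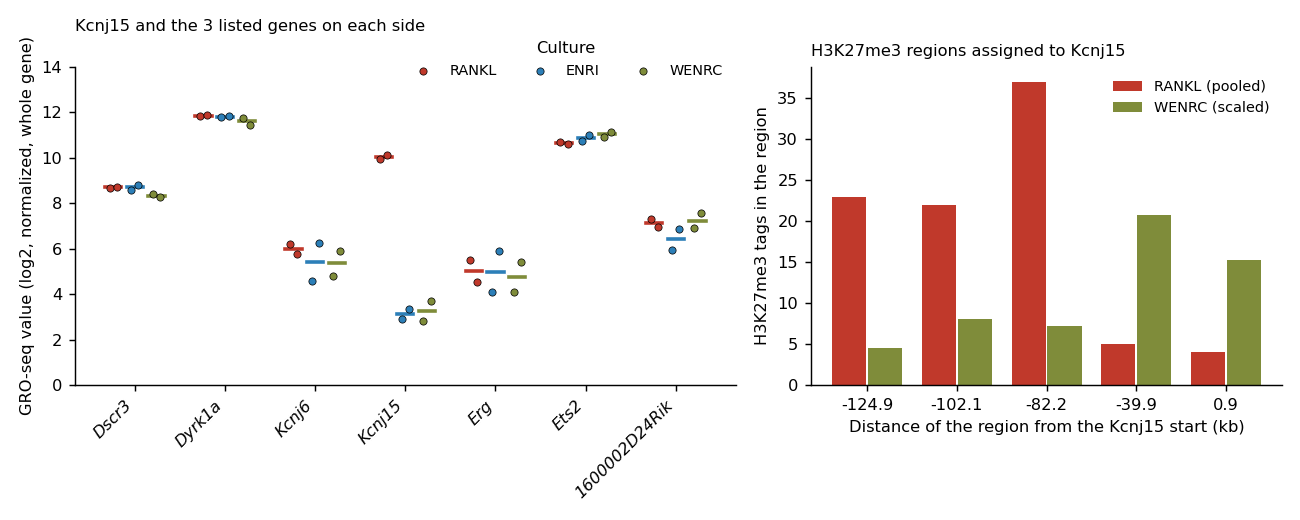
Left, GRO-seq values (log2, normalized, whole gene) of Kcnj15 and the 3 listed genes on each side in order along chromosome 16, with points for libraries and bars for the mean of 2. Right, H3K27me3 tags in the 5 regions assigned to Kcnj15, in pooled RANKL and in the single WENRC library (scaled), by distance from its start in kb. On the left, Kcnj15 stands at about 10 in RANKL and about 3 in the other cultures, while each other gene stays within 1 log2 unit of its RANKL mean in the other means. On the right, the 2 regions nearest its start have more tags in WENRC.

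A gene was tested where at least 2 libraries reached the log2 of 10, and 65 of 97 members passed (67.0%, against 67.6% of all genes). A member that passed only through the culture where it was high had to differ. Kcnj15 reached the limit in library 2 of ENRI and of WENRC as well. The 2 members just inside were Kcns3 and Kcnj10, with second-highest values of 3.56 and 3.59. Just outside stood Kcna6 and Kcng4, with 2.75 and 2.73. The 32 members not tested had values of at most 2.90, and Kcna3 and Kcnmb4os1 were listed at 0 in all 6 libraries. Among them were 4 channel genes known from epithelia: Kcne1 (1.59 to 1.96), Kcne2 (1.89 to 2.23), Kcnj1 (0.71 to 0.83) and Kcnj16 (1.80 to 2.10). KCNJ16 is the known partner of KCNJ15 and KCNJ10 in mixed channels, and it lay under the filter in every culture, RANKL included.

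Per length of gene, which allows genes to be ranked, the RANKL order was led by Kcnq1 with a log2 value per kb of 6.04. Kcnq1ot1 followed at 5.98, then Kcnk5 at 5.90, Kcnk7 at 5.55, Kcnb2 at 4.89, Kcnn4 at 4.63, Kcnj15 at 4.61 and Kcnj13 at 4.61. Kcnj15 thus ranked 7 of the 65 tested members in RANKL, but 52 in ENRI and 49 in WENRC. This shift follows from the choice of the gene and is no separate result. Low ranks are approximate, since differences of weakly transcribed genes are understated on this scale (inferred). In ENRI the leader was Kcnk5 (6.19) and in WENRC it was Kcnn4 (5.58). Kcnb2 ranked 5 in RANKL, 33 in ENRI and 27 in WENRC. Neighbours in the order such as Kcnj15 and Kcnj13 in RANKL differed by less than the spread of their libraries.

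**Figure D2:**
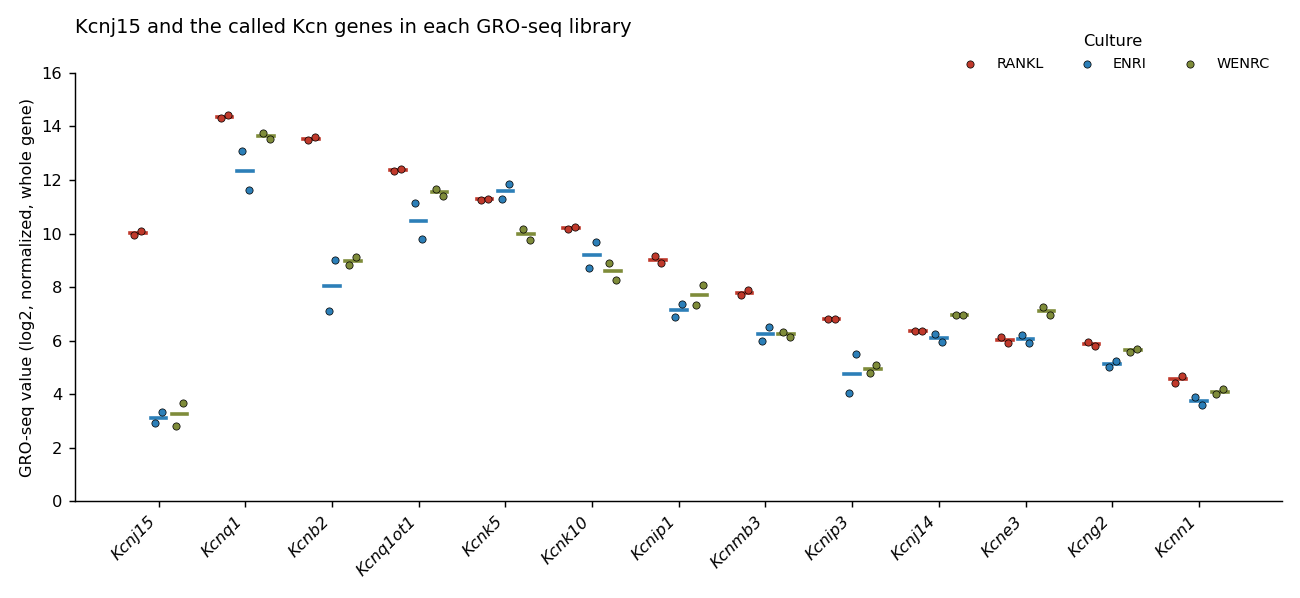
GRO-seq values (log2, normalized, whole gene) of Kcnj15 and the 12 other Kcn genes called in at least 1 comparison, by library, with a bar at the mean of the 2 libraries of each culture. Kcnj15 and Kcnb2 show the widest gaps between RANKL and the other cultures, while Kcne3 and Kcnj14 are highest in WENRC.

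RANKL was first compared with ENRI, the M-cell against the enterocyte culture. Transcription was higher in RANKL for 8 of the 64 tested members other than Kcnj15 and lower for 0. That is 12.5% of them at a limma FDR under 0.05, against 20.9% of all 16563 genes tested (10.4% higher and 10.5% lower). Without adjustment 16 had a p under 0.05, and the share of all genes at such a p is not given here or for the other comparisons. The median change was -0.03, against -0.005 over all genes. The members that rose were 3 voltage-gated channel genes, 3 auxiliary subunits, 1 calcium-activated channel gene and the opposite-strand RNA Kcnq1ot1. No two-pore channel and no further inward rectifier was called.

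Kcnb2, coding for a delayed rectifier known from neurons and endocrine cells, changed most. It read 13.49 and 13.59 in RANKL, 7.11 and 9.01 in ENRI, and 8.83 and 9.14 in WENRC. Both RANKL libraries were above all others, and the 2 ENRI libraries lay far apart. Its change over ENRI was 5.48 (SE 0.57, limma FDR 0.0038). Kcng2, whose product is electrically silent alone and joins channels of the KCNB type, read 5.95 and 5.81 in RANKL and 5.01 and 5.24 in ENRI. Its change was 0.75 (SE 0.19, limma FDR 0.042), and with upper-quartile recentring it did not pass (limma FDR 0.056).

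Kcnq1, the crypt channel of chloride secretion, read 14.31 and 14.41 in RANKL, 13.08 and 11.62 in ENRI, and 13.75 and 13.52 in WENRC. The cultures did not overlap, with ENRI lowest and widest. It rose by 2.01 over ENRI (SE 0.46, limma FDR 0.031). Kcnq1ot1, the long RNA of the imprinted Kcnq1 domain, lies within Kcnq1 on the other strand and rose by 1.88 (SE 0.42, limma FDR 0.028). Since strand handling in the counting is not stated, the reads of these overlapping genes cannot be told apart. Without ENRI library 2 the change of Kcnq1 was 1.28 and that of Kcnq1ot1 1.21. With quantile normalization Kcnq1 no longer passed (limma FDR 0.055). The stem-cell list summed to 14.1 and 14.2 in RANKL, 12.8 and 12.2 in ENRI, and 14.3 and 14.5 in WENRC on the log2 scale. Its part in the values of Kcnq1 was not tested.

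Auxiliary subunits made up most of the remaining calls. Kcnip1 and Kcnip3 code for calcium-binding partners of KCND channels. Kcnip1, which overlaps Kcnmb1, read 9.15 and 8.89 in RANKL and 6.88 and 7.38 in ENRI, a rise of 1.89 (SE 0.30, limma FDR 0.012). Kcnip3, whose protein is also known as a calcium-regulated repressor of transcription, read 6.82 and 6.81 in RANKL and 4.03 and 5.50 in ENRI. It rose by 2.05 (SE 0.47, limma FDR 0.030), and by 1.32 without ENRI library 1. Kcnmb3, a beta subunit of the large-conductance channel, read 7.71 and 7.88 in RANKL and 5.99 and 6.51 in ENRI. Its rise was 1.55 (SE 0.23, limma FDR 0.010). Kcnn1, a small-conductance calcium-activated channel gene, read 4.43 and 4.68 in RANKL and 3.90 and 3.59 in ENRI, a rise of 0.81 (SE 0.21, limma FDR 0.042) that upper-quartile recentring brought just past the threshold (limma FDR 0.051). The pore-forming partners moved less: Kcnma1, the large-conductance channel itself, read 8.46 and 8.14 in RANKL and 7.35 and 8.76 in ENRI, which overlapped.

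The number of calls rested on single libraries, and it fell or rose when 1 library was left out. Such a fit leaves a culture with no spread of its own, so its counts are not given. Whether calls over all genes moved alike was not tested. An adjusted p under 0.05 in the authors' deposited table was reached by 7 members, 6 higher and 1 lower, and by 19.6% of all genes. That one is Kcnq5, named here after its values were seen, a channel gene that read 7.17 and 6.98 in RANKL and 10.03 and 7.83 in ENRI (change -1.85, limma FDR 0.097).

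RANKL was next compared with WENRC, the M-cell against the stem-cell culture. Transcription was higher in RANKL for 5 of 64 members and lower for 1. That is 9.38%, against 12.1% of all genes tested (8.53% higher and 3.62% lower). A further 7 reached an unadjusted p under 0.05 for 13 in all, and the median change was 0.12, against -0.007 over all genes. The RANKL libraries are shared by both contrasts, so the changes are set side by side and not counted as repeats.

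Kcnb2 was again the member with the widest change, at 4.56 over WENRC (SE 0.57, limma FDR 0.0081). Kcnmb3 read 6.33 and 6.14 in WENRC, below both RANKL libraries, and was higher in RANKL by 1.56 (SE 0.23, limma FDR 0.013). Kcnip1 read 7.32 and 8.06 in WENRC and was higher in RANKL by 1.33 (SE 0.30, limma FDR 0.043). That call did not hold with upper-quartile recentring (limma FDR 0.074) or quantile normalization (limma FDR 0.063). Kcnip3 read 4.80 and 5.08 in WENRC, with a change of 1.87 that missed the threshold (SE 0.47, limma FDR 0.053). For Kcnq1 the change was 0.73 (SE 0.46, limma FDR 0.35), and quantile normalization turned it to -0.30.

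The 2 two-pore channel genes called here were not called against ENRI. Kcnk10, a mechanically and lipid-gated leak channel, read 10.16 and 10.25 in RANKL, 8.72 and 9.69 in ENRI, and 8.90 and 8.27 in WENRC. It was higher than in WENRC by 1.62 (SE 0.35, limma FDR 0.038). Its gene overlaps Gm40893. Kcnk5, an acid-sensitive leak channel of kidney and gut epithelia, read 11.27 and 11.30 in RANKL, 11.29 and 11.86 in ENRI, and 10.19 and 9.78 in WENRC. Its RANKL values reached those of ENRI and lay above both WENRC libraries, with a change of 1.30 over WENRC (SE 0.24, limma FDR 0.023). The enterocyte list summed to 14.4 and 14.5 in RANKL, 15.4 and 16.3 in ENRI, and 13.2 and 12.2 in WENRC on the log2 scale, and its part in the values of Kcnk5 was not tested.

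Kcne3, the partner of KCNQ1 in crypt cells, was the 1 member lower in RANKL. It read 6.14 and 5.91 in RANKL, 6.22 and 5.92 in ENRI, and 7.25 and 6.96 in WENRC. RANKL and ENRI overlapped, and WENRC stood above both. Kcne3 fell by 1.08 against WENRC (SE 0.22, limma FDR 0.030).

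In the WENRC contrast too, the number of calls fell or rose when 1 library was left out. A fit on the 4 libraries compared called 17 members by limma, 10 higher and 7 lower. The share of all genes called in that fit is not given here, so the 17 cannot be read as particular to Kcn genes. Of the 64 tested members, 15 had an adjusted p under 0.05 in the authors' deposited table (9 higher, 6 lower), where 27.8% of all genes tested passed. Kcnk1 and Kcnn4 were among those lower there, with deposited log2 fold changes of -1.19 and -1.17. Kcnip3 and Kcnq1, not called by limma in this contrast, were among those higher there, with 3.10 and 0.80. Kcng4, which lay under the low-value filter and is not in these counts, also passed there, with a deposited log2 fold change of 6.96.

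**Figure D3:**
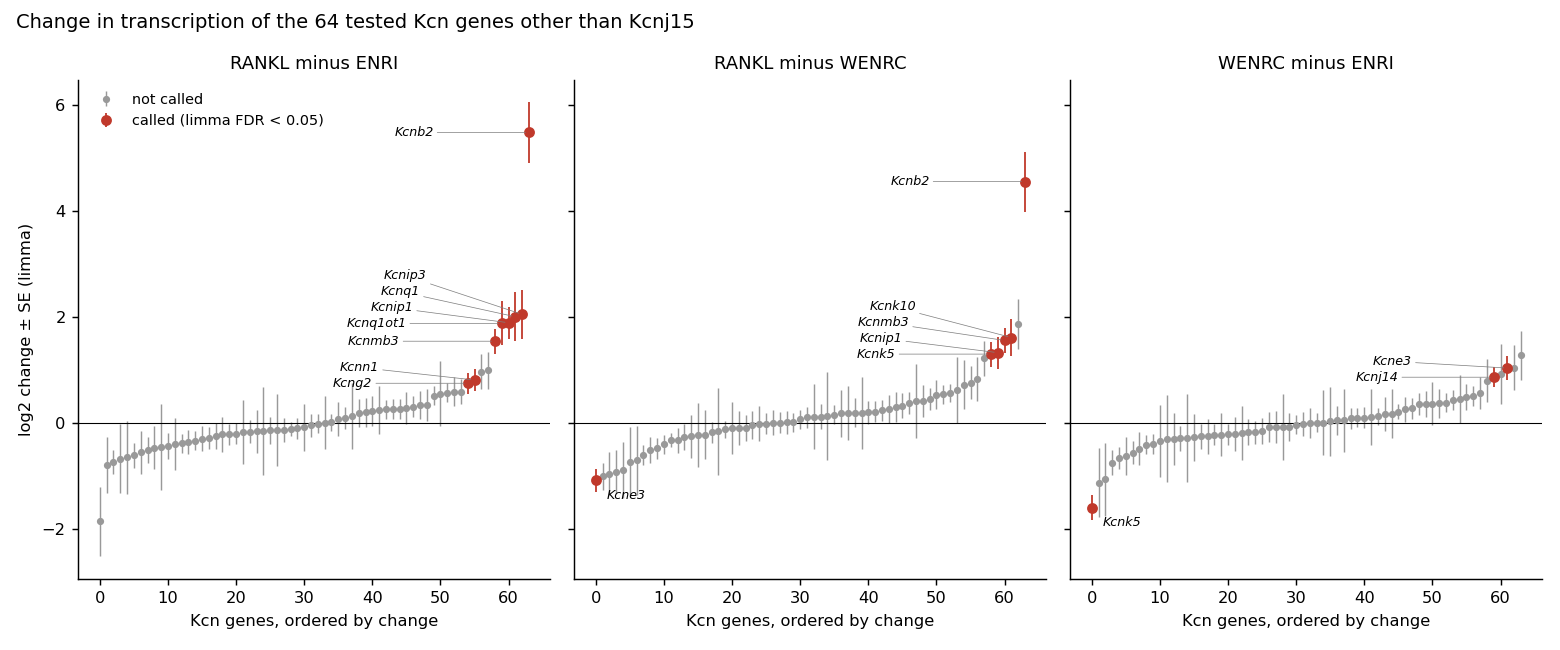
Change in transcription (log2, with the SE from limma) of each of the 64 tested Kcn genes other than Kcnj15, ordered by change within each of the 3 comparisons. Red points passed a limma FDR under 0.05. Calls lie on the higher side in the contrast with ENRI (8 higher, 0 lower), Kcnb2 stands apart in both contrasts with RANKL, and most members lie close to 0.

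WENRC was compared with ENRI, the stem-cell against the enterocyte culture. The libraries pair by mouse, but the reported fit had no mouse term and took its spread from all 6 libraries. Of 64 members 2 were higher in WENRC and 1 lower. That is 4.69%, against 14.6% of all genes tested (4.85% higher and 9.74% lower), with 9 members at an unadjusted p under 0.05 and a median change of -0.006. Kcnk5 fell by 1.59 (SE 0.24, limma FDR 0.015), by 1.10 in mouse 1 and by 2.09 in mouse 2. Kcne3 was higher in WENRC by 1.04 (SE 0.22, limma FDR 0.032), with 1.03 in mouse 1 and 1.05 in mouse 2. Kcnj14, an inward rectifier gene, read 6.95 and 6.97 in WENRC and 6.26 and 5.93 in ENRI. It was higher by 0.87 (SE 0.19, limma FDR 0.037), with 0.69 and 1.04 in the 2 mice, and not called with the mouse or replicate number as a block (limma FDR 0.062).

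A fit on the 4 libraries alone called 0 members by limma, with 5 members at an unadjusted p under 0.05 (13 when the mouse entered as a block). Leaving out 1 library lowered or raised the number of calls. Shares of all genes in these fits are not given here. By the adjusted p of the authors' deposited table, 2 members passed, and 12.5% of all genes.

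The remaining epithelial channel genes fixed for naming were tested but not called in any comparison. Kcnn4, the calcium-activated channel of secreting crypts, read 8.56 and 8.50 in RANKL, 9.33 and 8.03 in ENRI, and 9.63 and 9.33 in WENRC. Both WENRC libraries were above both RANKL libraries, with a change of -0.95 (SE 0.40, limma FDR 0.18). Kcnk1, a two-pore channel gene, read 9.07 and 9.27 in RANKL and 10.16 and 10.20 in WENRC, a change of -1.004 that missed the threshold (SE 0.25, limma FDR 0.053). Kcnk6, another of that subfamily, read 6.03 and 5.78 in RANKL, 6.19 and 5.89 in ENRI, and 5.96 and 5.61 in WENRC.

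The uncalled genes fixed for naming also included the inward rectifiers Kcnj13, Kcnj2 and Kcnj10. Kcnj13, which overlaps Gigyf2, read 7.75 and 8.16 in RANKL, 8.14 and 8.47 in ENRI, and 7.89 and 7.61 in WENRC. Kcnj2, a strong inward rectifier of muscle and other excitable cells, read 5.20 and 5.22 in RANKL and 5.44 and 5.84 in ENRI. Kcnj10, a partner of KCNJ16 in kidney and glia, lay between 3.45 and 3.65 in all 6 libraries. The voltage-gated Kcnh2, known from the heart, read 5.42 and 5.40 in RANKL, 4.98 and 5.69 in ENRI, and 5.21 and 5.80 in WENRC. None of these 4 genes had an absolute change over 0.56 in any comparison.

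Long Kcn genes differed between the libraries of 1 culture. In 7 tested members library 2 was at least 1 log2 unit above library 1 in both ENRI and WENRC: Kcnd2, Kcnh5, Kcnj3, Kcnj6, Kcnmb2, Kcnn2 and Kcnt2. That is 10.8% of tested members, against 2.49% of all genes tested, and 0 members showed the reverse (0.211% of all genes). Kcnd2, a voltage-gated channel gene of 514 kb, read 4.68 and 6.64 in ENRI, 4.38 and 6.38 in WENRC, and 5.73 and 5.31 in RANKL. These 7 genes had a median length of 297 kb, against 47.8 kb for the other tested members. Long genes showed the pattern outside the Kcn genes too: all tested genes with it had a median length of 326 kb. The median was 22.9 kb over all tested genes and 55.7 kb over tested members, which were thus longer than most. All 7 had a RANKL mean between the 2 ENRI libraries, so none of them set RANKL apart from ENRI.

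Across the 65 tested members, the difference between library 2 and library 1 had a Pearson r with log2 length of 0.46 in ENRI, 0.61 in WENRC and -0.35 in RANKL (Spearman 0.60, 0.64 and -0.34). Over all tested genes the Pearson r was 0.17, 0.34 and -0.20. Genes share the 2 libraries behind each value and are not independent. Library number stands for mouse and for the date in the file header in ENRI and WENRC, and these cannot be told apart.

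**Figure D4:**
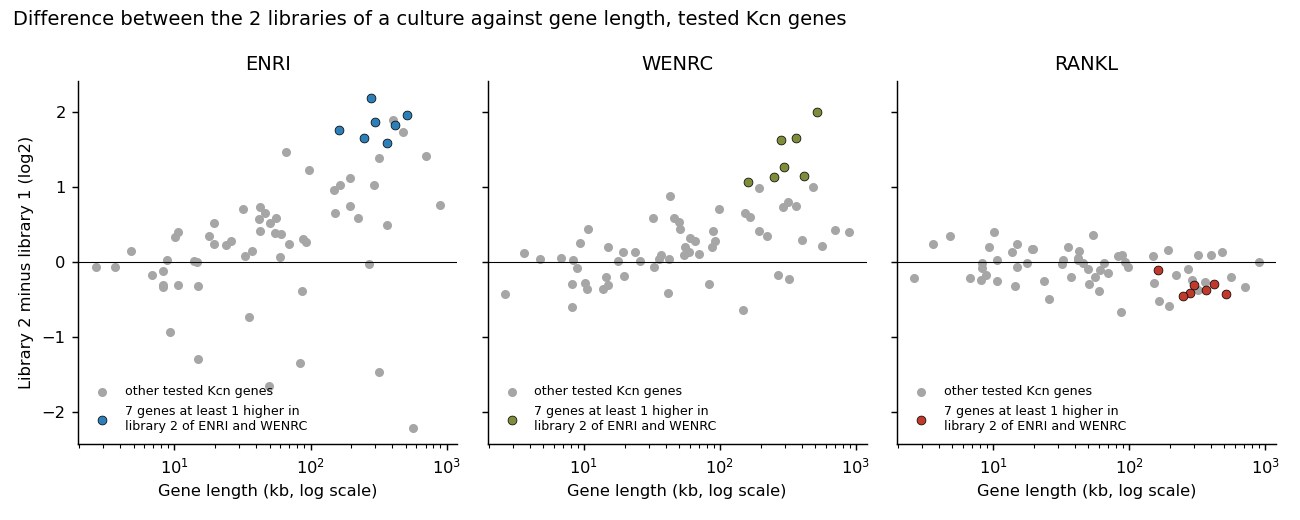
Difference between library 2 and library 1 (log2) against gene length (kb, log scale) for the 65 tested Kcn genes, in ENRI, WENRC and RANKL. The 7 coloured genes lie at or above 1 in ENRI and WENRC and slightly below 0 in RANKL, and all are longer than 162 kb.

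Differences in H3K27me3 come from the authors' 2 lists of regions, each called in 1 culture against the other with at least a 2-fold difference in tags. There is no replicate check of these differences, and fold and tags are the authors' values. Kcn genes were assigned 344 of the 35798 regions higher in RANKL and 113 of the 13607 regions higher in WENRC. Of the 97 members, 52 (53.6%) had a region higher in RANKL within 5 kb of a start site, against 19.1% of all genes. A region higher in WENRC lay within 5 kb in 17 (17.5%), against 5.44% of all genes. These were 11 of the 65 tested members (16.9%, against 5.01%) and 6 of the 32 others (18.8%, against 6.33%). Both kinds occurred in 8 members and neither in 36. The 2 lists hold differences of opposite direction, so the lack of overlap between their member regions follows from how they were made.

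The share with a region higher in RANKL was alike in members that were transcribed enough to be tested (35 of 65, 53.8%, against 18.0% of all tested genes) and in those that were not (17 of 32, 53.1%, against 21.3%). Genes with several start sites have more chances to hold a region. Among the 56 members with 1 RefSeq start window it was 28 (50%), against 18.1% of such genes. Within 1 kb of a start, 29 members had a region (29.9%, against 10.5% of all genes). At a fold of at least 4 only 3 members were left (3.09%, against 3.04%), so the higher share of members lay in regions under that fold. For regions higher in WENRC, 5 members had one within 1 kb (5.15%, against 1.24%) and 2 had one of at least 4-fold (2.06%, against 1.37%). The median fold of the 96 regions within 5 kb was 2.67, against 2.71 for all genes, and their median length 767 bp, against 639 bp.

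By subfamily, regions higher in RANKL lay near the start of 20 of 40 voltage-gated channel genes, 9 of 15 inward rectifiers, 8 of 14 two-pore channels, 5 of 8 calcium- or sodium-activated channels and 10 of 16 auxiliary subunits. Regions higher in WENRC lay near 6, 6, 2, 0 and 3 of these. None of the 4 opposite-strand RNAs had either. Members with a nearby region higher in RANKL had a median of 16.5 CpGs in the promoter window, against 10 in members without (40 and 31 promoters). Over all genes these medians were 16 and 7. Members with a nearby region higher in WENRC had a median of 5, and those without 16 (15 and 56 promoters). Over all genes the order was the reverse, with 11 and 8.

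**Figure D5:**
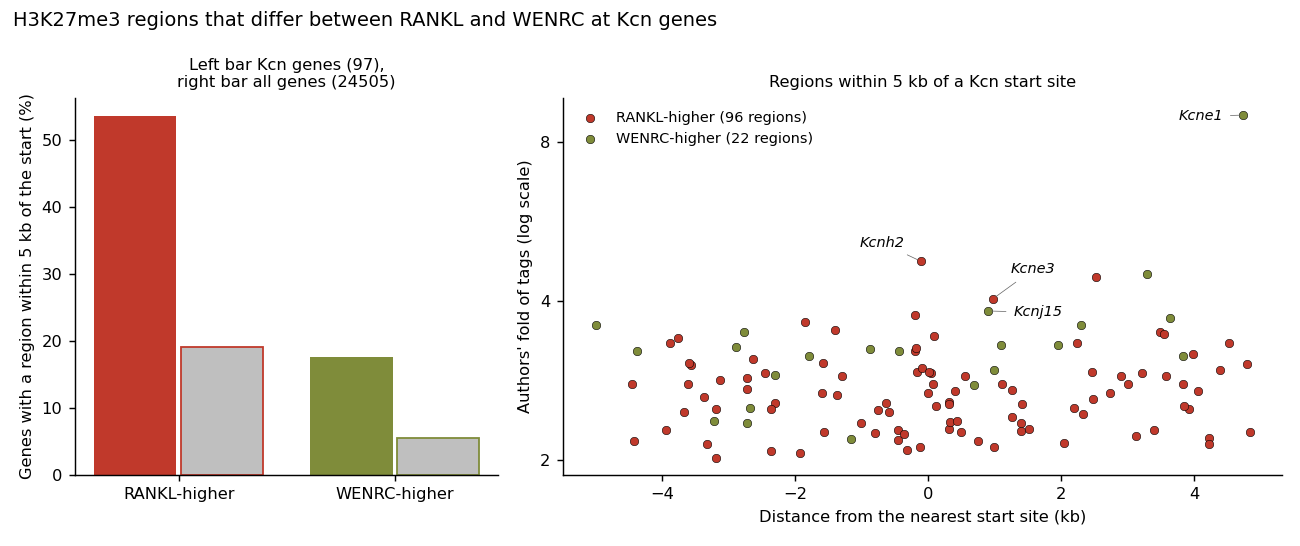
Left, the percentage of Kcn genes (coloured bars) and of all genes (grey bars) with an H3K27me3 region within 5 kb of a start site, for regions higher in RANKL and in WENRC. Right, the authors' fold of tags (log scale) against distance from the nearest start (kb) for the 96 and 22 such regions of Kcn genes. The coloured bars reach 53.6% and 17.5%, against 19.1% and 5.44%, and most folds lie between 2 and 4.

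Among regions higher in RANKL, folds of at least 4 near a start were seen at Kcnh2 and Kcne3, among others. At Kcnh2 a region of 1989 bp over an internal start (mm9 chr5:23834529-23836518) had 90 tags in RANKL and 18.9 scaled tags in WENRC, a fold of 4.76. A second one, centred 320 bp from the start of the listed transcript, had 421 and 183.7 tags. The Kcne3 region (mm9 chr7:107325655-107326657), in an intron 976 bp after a start, had 40 and 9.9 tags (fold 4.04).

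Lower folds were those of Kcnma1 (3.76), Kcnh6 (3.65), Kcnip4 (3.52), Kcnh7 (3.49), Kcnip3 (3.46), Kcnk1 (3.43), Kcnk2 (3.33) and Kcnk13 (3.33). The Kcnma1 and Kcnk1 regions lay over a promoter, 204 bp before and 93 bp after the start. Kcnip3, higher in RANKL than in ENRI, held 5 regions higher in RANKL near its starts.

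Among regions higher in WENRC within 5 kb of a start, the highest fold was at Kcne1, an auxiliary subunit under the transcription filter, with 2 tags in RANKL and 18 in WENRC (fold 9). Kcnf1 followed with 5 and 22.5 tags (fold 4.50), and Kcnj15 was next. The next in order, among the 17 members with such a region, were Kcnk4 (3.71), Kcna4 (3.60), Kcnip1 (3.60), Kcnj12 (3.49), Kcnk16 (3.30), Kcnj1 (3.27), Kcng3 (3.25), Kcnab2 (3.15) and Kcng4 (3.15). Kcng3 stood apart by its depth, with 28 tags in RANKL and 90.9 in WENRC in a region annotated to its promoter and centred 873 bp before the start. Most of the regions higher in WENRC had few tags: the 22 near a start had a median of 8 RANKL and 26.1 WENRC tags.

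At Kcnj15 itself, the region near the start (mm9 chr16:95479815-95480315, intron, 900 bp after the start) had 4 tags in RANKL and 15.3 in WENRC, a fold of 3.83. The exact Poisson 95% interval of the 4 tags, which covers counting error only, was 1.09 to 10.2. A second region higher in WENRC lay 39.9 kb before the start, with 5 and 20.7 tags (fold 4.14). Farther upstream, at 82.2, 102.1 and 124.9 kb, 3 intergenic regions were higher in RANKL, with folds of 5.14, 2.72 and 5.11. Kcnj15 is therefore a member whose start had fewer tags of the mark in the culture with more transcription.

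Kcnb2, the member nearest to Kcnj15 in its change, had no region within 5 kb of its start, and regions of both lists farther away. One higher in RANKL lay 191 kb before the start, with 21 tags in RANKL and 3.6 in WENRC (fold 5.83). A region higher in WENRC lay in an intron 187 kb into the gene, with 3 tags in RANKL and 18 in WENRC (fold 6), and another lay 25.1 kb before the start (fold 3.06). Counted by position and not by nearest start, the body of Kcnb2 held 3 regions higher in WENRC and 0 higher in RANKL. Kcnj2, an inward rectifier next to Kcnj16, had the most regions higher in RANKL of any member, 29, none of them within 5 kb. They lay between 10.95 kb before and 811 kb after its start, where it was the nearest listed gene.

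Both assays covered RANKL and WENRC, so called changes were set beside the mark. Of the 5 members higher in RANKL, Kcnip1 and Kcnk10 had a region higher in RANKL near a start, Kcnip1 also 3 higher in WENRC, and Kcnb2, Kcnk5 and Kcnmb3 had neither. Of all 1412 genes higher in RANKL, 155 had a nearby region higher in RANKL and 161 one higher in WENRC (10.98% and 11.4%). The Kcnk10 region, 321 bp before a start, had 64 and 30.6 tags (fold 2.09). Kcne3, the member lower in RANKL, had more of the mark there, and of all 600 genes lower in RANKL 32% had a nearby region higher in RANKL and 2.5% one higher in WENRC. Of the 58 members not called, 32 had a nearby region higher in RANKL (55.2%) and 9 one higher in WENRC (15.5%), against 18.1% and 4.49% of all genes not called. Tested members with a region higher in RANKL had a median change in transcription of -0.09 (n = 35), and those without one 0.20 (n = 29). Over all tested genes these medians were -0.09 and 0.01.

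A list of 40 genes was set beside these channels as partners of epithelial potassium and chloride transport. A role in such transport was not checked for each gene, Kctd12 among them. Of the 40 genes 35 were tested. Against ENRI, 4 were higher in RANKL and 5 lower, where 10.4% and 10.5% of all genes tested were called. Cftr, the chloride channel of secreting cells, read 13.20 and 13.27 in RANKL and 12.17 and 11.51 in ENRI, a rise of 1.39 (limma FDR 0.015). Kctd12 rose by 2.49 and Stk39 by 0.65. Slc26a3, the chloride-bicarbonate exchanger of absorbing cells, read 7.19 and 7.47 in RANKL and 10.68 and 11.81 in ENRI, and fell by 3.91 (limma FDR 0.0046). Slc12a3 fell by 1.65, Sgk1 by 1.45 and Slc9a3r1 by 1.44. The parts of the stem-cell and enterocyte lists, which also differed between RANKL and ENRI, were not tested for Cftr or Slc26a3.

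Against WENRC, 5 partners were higher in RANKL and 1 lower, where 8.53% and 3.62% of all genes were called. Those that rose included Clca1 (by 2.46), Slc26a6 (by 1.89), Kctd12 (by 1.61) and Clcn2 (by 1.09). Lrrc26, an auxiliary subunit of the large-conductance potassium channel, read 5.84 and 5.85 in RANKL and 7.01 and 6.84 in WENRC, and fell by 1.07 (limma FDR 0.019). Clca1 is also a goblet-cell marker. The goblet list summed to 13.6 in both RANKL libraries and to 11.9 and 10.8 in WENRC on the log2 scale, with 3 of 6 markers higher in RANKL, and its part in the Clca1 value was not tested.

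Between WENRC and ENRI, 2 partners were higher in WENRC (Lrrc26 by 0.98 among them) and 10 lower, where 4.85% and 9.74% of all genes were called. The lower ones included Clca1 (-2.88), Slc26a3 (-2.61), Slc26a6 (-2.61), Slc9a3r1 (-1.94), Slc4a7 (-1.37) and Clcn2 (-0.97). The enterocyte list, given above, had 7 of 8 markers lower in WENRC, and its part in these partner values was not tested.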

How the data were processed

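The submitters' processing notes name Bowtie2 (version 2.3.4.1), HOMER, DESeq2 and mm9. Per the file headers, GRO-seq reads over whole RefSeq genes were counted with HOMER. The deposited GRO-seq values are log2 values, normalized between libraries, with the shape of a regularized logarithm (inferred), so differences of weakly transcribed genes are understated. The authors' log2 fold changes, p-value and adjusted p-value stand in the same deposited table. Each H3K27me3 table, per the file headers, holds peaks of 1 culture called against the other. RANKL tags are deposited whole counts, WENRC tags a deposited signal scaled by 0.9 with a floor of 0.5, and the authors' fold is a ratio of the 2. The number of unmatched per-sample columns was 0.

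Values were tested with no pseudocount by limma 3.58.1 in R 4.3.3, with a variance trend and 3 group means over 6 libraries. The 16563 genes with at least 2 libraries at or above the log2 of 10 entered, two-sided p-values were corrected over all of them (Benjamini-Hochberg), and a gene was called at an FDR under 0.05. The fit was run on simulated data with independent noise and 200 changed genes. It gave 192 calls for RANKL minus ENRI, 2.6% of them false. The simulation held no mouse shared between libraries and fewer changed genes than were called here, so it does not check the fit for those. P-values measure only the spread between 2 libraries a culture, pooled over the 3 cultures. In ENRI and WENRC the 2 libraries came from different mice per the labels. In RANKL, where no mouse is given, the spread may be technical. Strand handling is not given in the sources used here: 17 members overlap another listed gene, and Kcnh8 has 2 genomic copies. Same-numbered ENRI and WENRC libraries share a mouse per the labels, with a correlation of deviations of 0.41, and RANKL numbers gave -0.20 and -0.32. H3K27me3 is described with gene and distance as the authors annotated them. Promoters came from RefSeq (GRCm38.p6), whose coordinates are not those of mm9.

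Named were Kcnj15, all called members, 15 epithelial channel genes, the 12 highest folds of each H3K27me3 table, members at the edge of the filter, neighbours of Kcnj15 and called transport partners (up to 8 a comparison). Some genes that this rule names are not reported here; they remain in the counts. Members and lists were chosen with earlier results of these data known. Alternatives covered filters, scaling, variance trend, blocks, left-out libraries, overlapping genes and, for H3K27me3, fold, distance, tags and autosomes.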

Additional observations from a re-analysis of the deposited data

How the results depend on the processing

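Called members, of 64, by alternative. RANKL minus ENRI (8 in the reported fit) gave 6 to 8 calls under other filters, scalings and variance settings. The authors' table gave 7, of which 6 are among the 8. It gave 3 with only the 4 libraries compared, 5 without members overlapping another gene, and 0 to 14 when 1 library was left out. RANKL minus WENRC (6) gave 6 to 8 under other filters, scalings and variance settings. It gave 17 with only its 4 libraries, 15 by the authors' deposited adjusted p, and 0 to 18 when 1 library was left out. WENRC minus ENRI (3) gave 3 or 4 under those settings, 0 with only its 4 libraries, with or without the mouse as a block, and 0 to 12 when 1 library was left out. With the replicate number as a block the counts were 6, 6 and 2, losing Kcng2 and Kcnn1 against ENRI, Kcnk10 against WENRC, where Kcnip3 was gained, and Kcnj14 between WENRC and ENRI. Crossing the RANKL numbers, added after seeing the data because their deviations correlated negatively, gave 8, 7 and 2. Members with a nearby H3K27me3 region higher in RANKL (52) numbered 3 at a fold of at least 4, 29 within 1 kb and 68 at any distance. Those higher in WENRC (17) numbered 2, 5 and 48, and on autosomes the counts were 51 and 17. Of 897 values of named genes under alternatives, 741 kept direction and side of the threshold, 90 fell below it, 41 rose past it and 25 changed sign, each in a comparison where that gene had not been called. With all libraries these were Kcne3 over ENRI (0.065) and Kcnq1 over WENRC (-0.30) with quantile normalization, and Kcnmb3 between WENRC and ENRI (0.098) with upper-quartile recentring. The other signs changed when 1 library was left out, with these ranges of the change over ENRI: Kcne3 -0.20 to 0.11, Kcnh2 -0.28 to 0.43, Kcnj10 -0.022 to 0.057, Kcnk6 -0.28 to 0.021, Kcnma1 -0.46 to 0.95 and Kcnn4 -0.80 to 0.50. Over WENRC the ranges were Kcnh2 -0.39 to 0.21, Kcnj13 -0.0020 to 0.41 and Kcnk6 -0.055 to 0.30. Between WENRC and ENRI they were Kcnb2 -0.022 to 1.88, Kcnh2 -0.19 to 0.52, Kcnip3 -0.56 to 0.92, Kcnj15 -0.32 to 0.56, Kcnj2 -0.40 to 0.048, Kcnma1 -0.25 to 1.17 and Kcnmb3 -0.28 to 0.25. Fits with fewer libraries have fewer degrees of freedom, and a culture left with 1 library is assumed to vary like the others; the cause of the remaining changes was not tested. GRO-seq depth is unknown, and the H3K27me3 folds near start sites rest on as few as 2 tags in the lower culture.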
